A study of Mus musculus with 6 samples.

Results

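The 10 core circadian clock genes Arntl, Clock, Per1, Per2, Per3, Cry1, Cry2, Nr1d1, Nr1d2 and Dbp were examined in the leg muscle of mouse fetuses. They were taken by name from the 56262 genes of the count table after its Ensembl identifiers were matched to GENCODE M21 symbols, and all 10 were among the 22071 genes with enough counts to be tested. In muscle of SYISL KO fetuses, Nr1d1 and Nr1d2 stood 2.2-fold and 2.0-fold above their WT levels, Per1, Dbp, Per2 and Per3 rose by smaller amounts, and Cry1 fell slightly, a call lost in 7 of 14 alternative settings. Arntl, Clock and Cry2 did not pass the test.

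RNA-seq was performed on 3 WT and 3 KO samples of leg muscle at E18.5. KO fetuses carry a deletion of SYISL, a lncRNA whose sequence lies in sense with an intron of the Synpo2 gene. The authors mated KO females with KO males, and in a separate experiment mated heterozygous mice. Which mating gave these RNA-seq samples is not stated. If KO fetuses had KO mothers, the effects of the fetal and the maternal genotype cannot be told apart. Which fetuses shared a litter, how many were pooled, and the hour of collection were not given in the sources used here. Each library is a single moment of development, so levels were measured and rhythms were not.

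The mammalian clock is a feedback loop of transcription. BMAL1, the product of Arntl, pairs with CLOCK on E-box elements and drives the Per, Cry, Nr1d and Dbp genes; PER and CRY proteins then return to the nucleus and repress that pair. The REV-ERB proteins encoded by Nr1d1 and Nr1d2 repress Arntl from ROR elements, where ROR proteins activate it, and DBP carries the rhythm onward through D-box elements. In skeletal muscle the clock is known for timing genes of glucose and fuel use.

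The promoter sequences of some of the genes hold different elements of this loop. Windows of 250 bases upstream of annotated starts were taken from RefSeq on GRCm38.p6, the mm10 assembly, and 13 windows matched 9 of the 10 genes, all but Per2. They were searched on both strands, and no matches overlapped. The E-box CACGTG was found in 6.02% of all 32851 windows, among them a window of Per1 and that of Cry1. The related E'-box CACGTT was found in 3.85% of windows and in those of Nr1d1, Cry1 and Cry2. The D-box, as TTATGTAA or TTACGTAA, was found in 0.931% of windows and in that of Per3. The ROR element core, TAGGTCA or TGGGTCA, was found in 5.38% of windows and the cAMP response element TGACGTCA in 1.55%, and neither was found in a window of these genes. A match describes the letters only and is not evidence of binding. Bases outside these windows were not searched, so the lack of a match does not mean that a gene lacks the element. The stretches below are shown because they hold the matches in genes that did and did not change, with the matched element in capitals. All lie outside annotated exons and read 5′ to 3′ on the strand of the gene, so AACGTG is the E'-box read from its other strand.
Per1, chr11:69098758-69098813, plus strand: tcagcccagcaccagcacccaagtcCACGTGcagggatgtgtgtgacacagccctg
Nr1d1, chr11:98775378-98775430, minus strand: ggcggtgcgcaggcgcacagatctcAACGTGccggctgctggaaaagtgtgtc
Per3, chr4:151044791-151044895, minus strand: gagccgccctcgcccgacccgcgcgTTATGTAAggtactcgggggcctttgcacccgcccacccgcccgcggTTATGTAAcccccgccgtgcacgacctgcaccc
Cry1, chr10:85185084-85185158, minus strand: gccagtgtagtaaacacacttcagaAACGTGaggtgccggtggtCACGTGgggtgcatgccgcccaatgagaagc
Cry2, chr2:92434205-92434260, minus strand: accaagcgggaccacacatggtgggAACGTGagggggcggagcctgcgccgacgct

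Counted to its first base, the E-box lay 166 bases before an annotated start of Per1 and 60 bases before the start of Cry1. This Per1 window ends at chr11:69098948, inside the gene, which begins at 69095217. Another Per1 window, chr11:69099902-69100151, held no match. The E'-box lay 28 bases before the start of Nr1d1, 79 before Cry1 and 166 before Cry2. The D-boxes of Per3 lay 205 and 158 bases before its start. The E-box and E'-box matches were thus held by genes that rose (Per1, Nr1d1), by a gene that fell (Cry1) and by a gene that did not pass the test (Cry2). The windows of Nr1d2, Dbp and Per3, which rose, held neither. Those of Arntl and Clock, which did not pass, also held neither.

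The libraries held 82054811 to 102233181 counts, and the clock genes were well covered, from 378 counts of Dbp to 12553 counts of Per1 in a library. Levels are given in CPM, the counts of a gene scaled to a common library size with TMM factors. Over all genes the median log2 fold change of KO over WT was -0.0041. SYISL is not named in GENCODE M21, and its loss was not checked here. The samples also differed in cell type markers. Markers were called at an adjusted p under 0.05 in edgeR's quasi-likelihood test. By that call, 21.9% of all genes tested were higher and 23.1% lower. Summed levels of 6 muscle fibre markers were 15375 to 17432 CPM in WT and 33826 to 41206 CPM in KO, with 5 of 6 genes called higher and Myh3 not passing. Those of 6 keratinocyte markers were 15331 to 22930 CPM in WT and 667 to 774 CPM in KO, with all 6 lower. Red blood cell markers fell from 3228 to 3994 CPM in WT to 474 to 548 CPM in KO, with 5 of 5 lower, and adipocyte markers rose from 105 to 137 CPM to 339 to 401 CPM, with 5 of 5 higher. Macrophage markers rose from 167 to 181 CPM to 271 to 299 CPM, with 4 of 4 higher, and glia markers from 46.4 to 49.7 CPM to 67.5 to 81.4 CPM, with 3 of 3 higher. Cartilage markers were at 357 to 454 CPM in WT and 297 to 303 CPM in KO, with 3 of 4 lower and 1 higher. Fibroblast and endothelium sums were also higher in KO and proliferation sums lower, without overlap. Of the fibroblast markers 3 of 4 were called higher, of the endothelium markers 3 of 4, and of the proliferation markers 2 of 3 lower. Col1a1, Tek and Mki67 did not pass. No marker gene was at 0 counts. The part of these differences in the values of the clock genes was not tested. In such bulk tissue, fewer cells of a type and less RNA per cell cannot be told apart.

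Among the 10 genes, 6 rose at an adjusted p under 0.05 in edgeR's quasi-likelihood test, where 21.9% of all genes tested did so, and 1 fell, where 23.1% did. With a fold change over 1.5 also required, Nr1d1 and Nr1d2 rose, 2 of 10 against 8.31% of all genes. No clock gene was lower at that fold, against 8.39% of all genes, and this count was 0 with edgeR, DESeq2 and limma-voom. The largest decrease, that of Cry1, was 1.12-fold, so without adjusting p the count at this fold was also 0. All 3 KO libraries lay above all 3 WT libraries for 6 of the 10 genes, against 27.3% of all genes, and below them for 2, against 28.5%. The median log2 fold change of the 10 genes was 0.35.

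**Figure D1:**
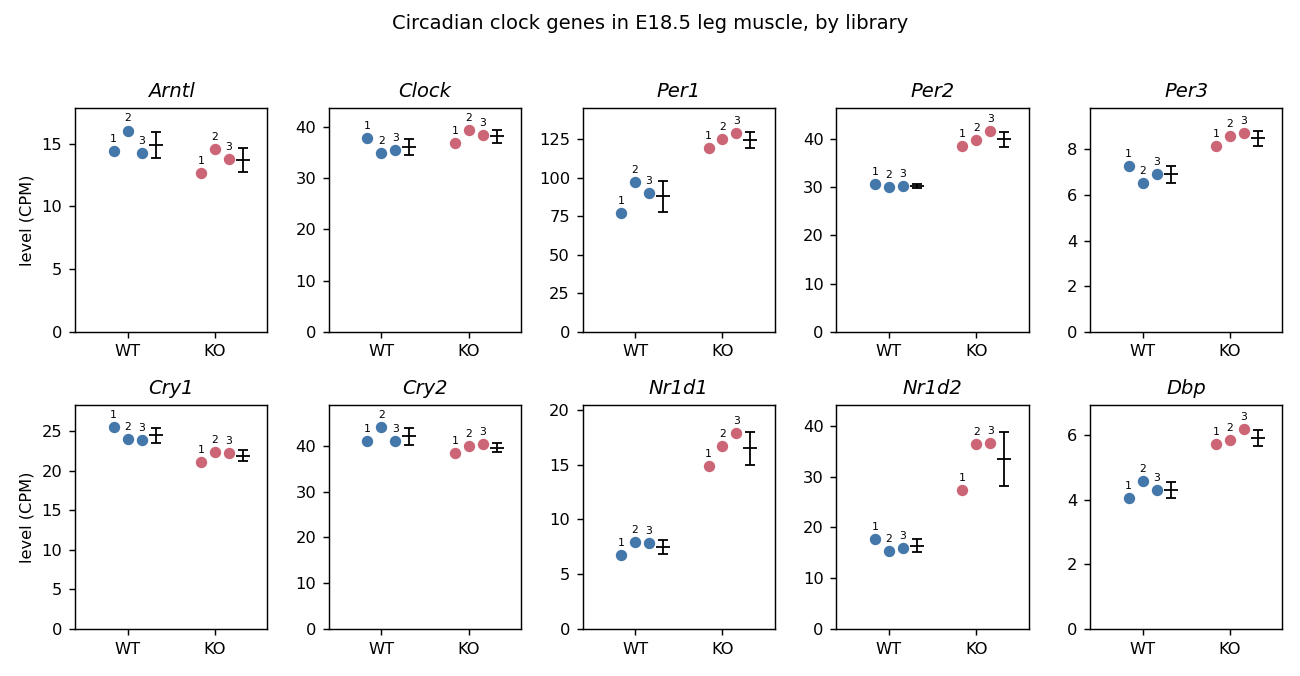
Level of each clock gene in CPM (vertical axes, from 0) in the 3 WT and 3 KO libraries; points are libraries, numbered by replicate, and the black mark beside them is the mean ± SD. Nr1d1 and Nr1d2 show the widest gap between genotypes, and the points of Arntl and Clock overlap.

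Neither activator of the loop passed the test. Arntl, which encodes BMAL1, was at 14.4, 16.1 and 14.2 CPM in the WT libraries and 12.7, 14.6 and 13.8 CPM in the KO libraries. The groups overlapped, with the second KO library above 2 of the WT libraries. The log2 fold change was -0.12 with an SE of 0.074 and a 95% interval of -0.29 to 0.043, and the adjusted p was 0.209. Clock, which encodes the partner of BMAL1, was at 38.0, 35.0 and 35.6 CPM in WT and 36.8, 39.4 and 38.4 CPM in KO. These groups overlapped too, since the first WT library lay above the first KO library. Its log2 fold change was 0.079 with an SE of 0.046 and an interval of -0.025 to 0.18, at an adjusted p of 0.198. Both intervals lie within a 1.5-fold change. Both calls turned on the scaling of the libraries: Arntl passed with library size only (-0.19, adjusted p = 0.0413) and Clock with upper-quartile factors (0.15, adjusted p = 0.0340).

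The Per genes encode the PERIOD proteins that repress CLOCK and BMAL1, and all 3 rose. Per1 was at 77.1, 96.9 and 89.7 CPM in WT and 118.9, 124.8 and 129.04 CPM in KO. Every KO library lay above every WT library, and the first WT library was the lowest of all. The log2 fold change was 0.50 with an SE of 0.075, at an adjusted p of 5.12e-04. Per2 was at 30.6, 30.0 and 30.2 CPM in WT and 38.5, 39.8 and 41.6 CPM in KO. The SD of Per2 within WT was 0.345 CPM (n = 3), and all 3 KO libraries lay well above the WT libraries. Its log2 fold change was 0.40 with an SE of 0.043, at an adjusted p of 5.7e-05. Per3 had the lowest level per length of the 10 genes in both genotypes. Its values were 7.28, 6.53 and 6.93 CPM in WT and 8.13, 8.60 and 8.74 CPM in KO. The groups did not overlap, and the log2 fold change was 0.30 with an SE of 0.068, at an adjusted p of 0.0062.

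The Cry genes encode the CRYPTOCHROME repressors, and neither rose with the Per genes. Cry1 was at 25.5, 24.0 and 23.8 CPM in WT and 21.1, 22.4 and 22.2 CPM in KO. All KO libraries were below all WT libraries, by a small margin. The log2 fold change was -0.16 with an SE of 0.051, at an adjusted p of 0.0283, and this call was lost in 7 of 14 alternative settings, with an adjusted p of up to 0.185. Cry2 was at 41.0, 44.1 and 41.0 CPM in WT and 38.5, 39.9 and 40.3 CPM in KO. Here too the groups did not overlap, yet the difference did not pass the test, with a log2 fold change of -0.087, an SE of 0.043, an interval of -0.18 to 0.011 and an adjusted p of 0.134. With library size only, Cry2 passed (-0.16, adjusted p = 0.0112). A short transcript on the opposite strand, D930015M05Rik, shares 295 exon bases with Cry2 and held 68 to 109 counts against 3606 to 4331 of Cry2.

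The REV-ERB genes, which encode the nuclear receptors that repress Arntl, had the 2 largest differences of the set. Nr1d1, encoding REV-ERBα, was at 6.72, 7.90 and 7.84 CPM in WT and 14.9, 16.7 and 17.9 CPM in KO. The lowest KO library was well above the highest WT library. Mean levels were 7.49 ± 0.667 CPM in the WT group and 16.5 ± 1.499 CPM in the KO group (SD of 3 libraries), and the log2 fold change was 1.14 with an SE of 0.089, at an adjusted p of 7e-06. Nr1d2, encoding REV-ERBβ, was at 17.8, 15.4 and 15.9 CPM in WT and 27.3, 36.5 and 36.7 CPM in KO. Again the groups were apart, but the first KO library stood below the other KO libraries, and the SD within KO was 5.38 CPM. The log2 fold change was 1.03 with an SE of 0.11, at an adjusted p of 6.2e-05. Nr1d1 shares 263 exon bases with Thra, the thyroid hormone receptor α gene on the opposite strand. The strand setting of the counting is not given in the sources used here, so reads of the shared bases cannot be told apart. Thra had 10771 to 13851 counts in WT and 15478 to 16014 in KO, with a log2 fold change of 0.34, against 636 to 828 and 1397 to 1739 counts of Nr1d1. No gene in GENCODE M21 shares exon bases with Nr1d2.

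Dbp, the D-box activator that is a direct output of the loop, rose as well. It was at 4.07, 4.57 and 4.30 CPM in WT and 5.74, 5.84 and 6.20 CPM in KO. No libraries overlapped between genotypes, and the log2 fold change was 0.46 with an SE of 0.075, at an adjusted p of 9.02e-04. Dbp shares 539 exon bases with Sphk2, a sphingosine kinase gene on the opposite strand. Sphk2 moved the other way, from 2422 to 2759 counts in WT to 1899 to 1992 counts in KO, a log2 fold change of -0.40.

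**Figure D2:**
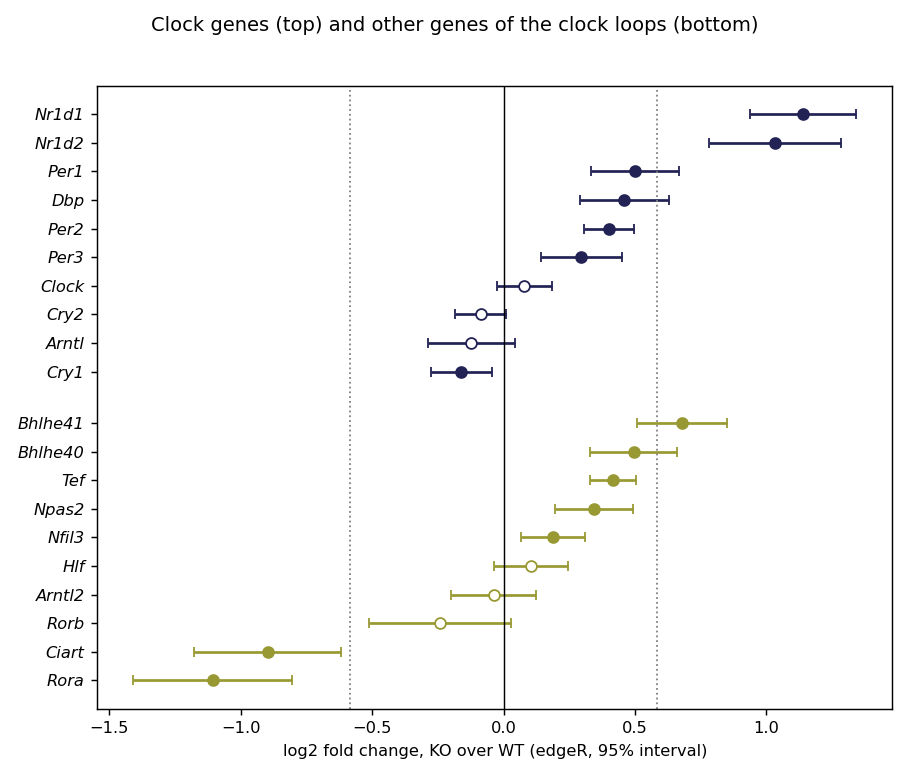
Log2 fold change of KO over WT with its 95% interval (horizontal axis) for the 10 clock genes and for 10 other genes of the clock loops; filled points have an adjusted p under 0.05, and dotted lines mark a 1.5-fold change. Nr1d1 and Nr1d2 lie beyond the dotted line at 1.14 and 1.03, and Rora and Ciart lie farthest to the left at -1.11 and -0.90.

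Within each genotype the libraries were not ordered alike for all clock genes. In KO, the first library was the lowest for all 10 genes and the third the highest for 7. The first KO library also had the lowest sum of muscle fibre markers, 33826 CPM against 41206 and 41032 CPM in the other KO libraries, and the lowest sums of keratinocyte, red blood cell, adipocyte, endothelium and glia markers. Its macrophage, cartilage and proliferation marker sums were the highest of the KO libraries. In WT, Per1, Cry2, Nr1d1 and Dbp were highest in the second library and lowest in the first, which is also the order of the keratinocyte marker sums at 22930 and 15331 CPM, the fibroblast sums at 21557 and 18969 CPM and the proliferation sums at 683 and 662 CPM. Clock, Per2, Per3 and Nr1d2 had the reverse order, highest in the first WT library and lowest in the second, as did the muscle fibre sums at 17432 and 15375 CPM and the adipocyte sums at 137 and 105 CPM. The part of these markers in the order of the libraries was not tested.

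Ratios of counts within a library do not depend on how libraries are scaled. The ratio of Nr1d1 to Arntl, a repressor over the gene it represses, was 0.466, 0.492 and 0.551 in WT and 1.18, 1.15 and 1.30 in KO. Arntl thus had more counts than Nr1d1 in every WT library and fewer in every KO library. Counts also depend on exon length, which is 3077 bases for Nr1d1 and 7523 bases for Arntl. In CPM per kb of exon, Nr1d1 lay above Arntl in both genotypes, at 2.43 against 1.98 in WT and 5.36 against 1.82 in KO. The log2 difference of this ratio between genotypes was 1.26. Its two-sided exact permutation p was 0.1, the smallest that 3 against 3 allows (adjusted p = 0.175 over 7 ratios). The ratio of Dbp to Arntl was 0.282, 0.285 and 0.302 in WT and 0.453, 0.400 and 0.450 in KO, a log2 difference of 0.58 with the same exact p of 0.1. Clock to Arntl, the activator pair, was 2.63, 2.18 and 2.50 in WT and 2.90, 2.70 and 2.79 in KO. This log2 difference of 0.20 also had an exact p of 0.1, with no overlap. No ratio could pass 0.05 in this design.

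Ratios between close relatives differed less. Per1 to Per2 was 2.52, 3.23 and 2.97 in WT and 3.09, 3.14 and 3.10 in KO, so the KO values lay inside the WT range, with a log2 difference of 0.10 and an exact permutation p of 0.5. Per3 to Per2 was 0.238, 0.218 and 0.229 in WT and 0.211, 0.216 and 0.210 in KO, lower in every KO library, with a log2 difference of -0.10 and an exact permutation p of 0.1. Cry1 to Cry2 was 0.622, 0.544 and 0.581 in WT and 0.548, 0.560 and 0.550 in KO, with a log2 difference of -0.073 and an exact permutation p of 0.4. Nr1d1 to Nr1d2 was 0.377, 0.515 and 0.492 in WT and 0.546, 0.458 and 0.487 in KO, with a log2 difference of 0.12 and an exact permutation p of 0.7. The first library of each genotype stood apart for the REV-ERB ratio, and without the first WT library the difference was -0.021.

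**Figure D3:**
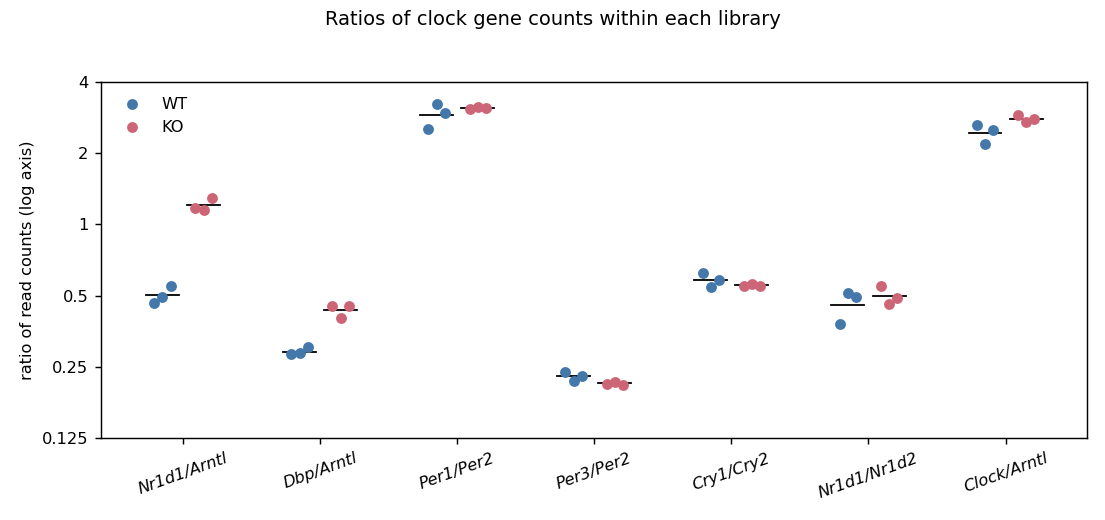
Ratio of read counts of 2 clock genes within each library (vertical log axis) for 7 ratios; points are libraries and black lines are geometric means of the 3 libraries. The Nr1d1/Arntl points lie between 0.466 and 0.551 in WT and between 1.15 and 1.30 in KO.

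Levels of different genes were compared per kb of exon. In WT, Per1 led at 15.6 CPM per kb, followed by Cry1 at 7.32, Cry2 at 6.65, Per2 at 5.17 and Nr1d2 at 3.03 CPM per kb. Clock at 2.64 and Nr1d1 at 2.43 CPM per kb came next, and their libraries overlapped. Arntl at 1.98, Dbp at 1.44 and Per3 at 0.719 CPM per kb closed the order, and apart from Clock and Nr1d1 no neighbours overlapped. In KO, Per1 was again first at 22.1 CPM per kb. Per2 at 6.83, Cry1 at 6.55, Cry2 at 6.26, Nr1d2 at 6.19 and Nr1d1 at 5.36 CPM per kb formed a run in which each gene overlapped the next. Clock followed at 2.78 CPM per kb, then Dbp at 1.98 and Arntl at 1.82 CPM per kb, which overlapped, and Per3 at 0.884 CPM per kb. Both REV-ERB genes were thus below both Cry genes in WT. In KO, the range of Nr1d2 overlapped with those of both Cry genes, while Nr1d1 stayed below both Cry genes.

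**Figure D4:**
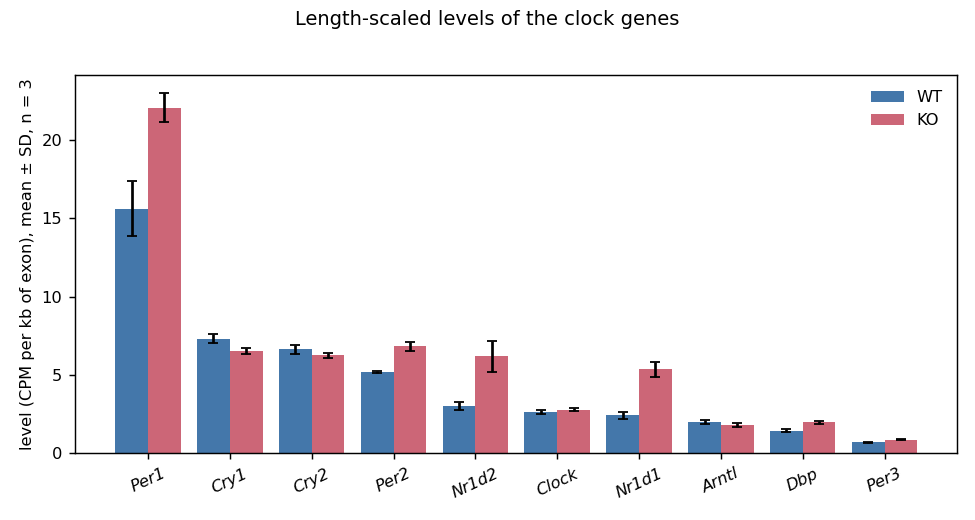
Mean level of each clock gene in CPM per kb of exon (vertical axis, from 0) in WT and KO; error bars are the SD of 3 libraries, and genes are ordered by their WT level. Per1 is the highest in both genotypes, at 15.6 and 22.1 CPM per kb, and Per3 the lowest.

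Another 11 genes belong to the same loops. Of these, 6 rose and 2 fell at an adjusted p under 0.05, where 21.9% and 23.1% of all genes did so, with a median log2 fold change of 0.19 against -0.0041 over all genes. Rora, a ROR activator that competes with the REV-ERB proteins, averaged 65.4 ± 12.7 CPM (SD of 3 libraries) in WT fetuses and 30.4 ± 3.95 CPM in KO fetuses, with a log2 fold change of -1.11. Its relative Rorb did not pass, at -0.24. Ciart, which encodes the CLOCK-BMAL1 repressor CHRONO, fell from 6.52 ± 1.13 to 3.50 ± 0.243 CPM, with a log2 fold change of -0.90. Rora and Ciart were highest in the second WT library and lowest in the first, as were the keratinocyte, fibroblast and proliferation marker sums. The part of these markers in their values was not tested. Bhlhe41, encoding the E-box repressor DEC2, rose from 3.98 ± 0.187 to 6.37 ± 0.351 CPM, with a log2 fold change of 0.68. Genes that passed with smaller changes were Bhlhe40 (DEC1) at 0.49, the Dbp relative Tef at 0.42, the Clock paralog Npas2 at 0.34 and the D-box repressor Nfil3 at 0.19. Hlf at 0.11, another relative of Dbp, and Arntl2 at -0.038 did not pass. All KO libraries lay above all WT libraries for 6 of the 11 genes, against 27.3% of all genes. They lay below for 3, Rora, Ciart and Rorb, against 28.5% of all genes. Among the repressor genes of the loops, the Per, REV-ERB and DEC genes and Nfil3 were thus higher in KO, Ciart was lower, Cry1 was lower with a call that depended on the setting, and Cry2 did not pass.

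Enzymes and partners that act on clock proteins made up a list of 22 genes, of which 2 rose and 8 fell, against 21.9% and 23.1% of all genes, and the median log2 fold change was -0.080. Prkaa2, the α2 catalytic subunit of AMPK, rose by 0.76, and Usp2, a deubiquitinase that is itself clock-driven, rose by 0.52 on the log2 scale. Csnk2a2, a catalytic subunit of casein kinase 2, fell by 0.97 on the log2 scale, from 142 ± 14.4 to 72.3 ± 1.80 CPM, and was the only gene of the list lower by over 1.5-fold. Like Rora and Ciart, Csnk2a2 was highest in the second WT library and lowest in the first. The part of cell type markers in this value was not tested. The regulatory subunit Csnk2b at -0.48 and the PER-binding protein gene Sfpq at -0.41 also fell. The casein kinase 1 genes Csnk1d at -0.079 and Csnk1e at -0.091, whose products phosphorylate PER, did not pass.

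Genes described as clock outputs in muscle made up a list of 12, of which 9 rose, against 21.9% of all genes, and 1 fell, against 23.1%, with a median log2 fold change of 0.49. Tcap, the titin cap of the sarcomere, rose from 19.1 ± 1.08 to 66.5 ± 9.04 CPM, with a log2 fold change of 1.80. Slc2a4, the insulin-responsive glucose transporter GLUT4, rose by 1.33 on the log2 scale, and the mitochondrial carrier gene Ucp3 from 2.85 ± 0.214 to 5.70 ± 0.553 CPM. Pdk4 and Pdp1, which switch pyruvate dehydrogenase off and on, rose by 0.99 and 0.67. Myod1, the myogenic factor, fell by 0.22 on the log2 scale. Muscle fibre markers rose in the same libraries, with a median log2 fold change of 1.32, and their part in this list was not tested. Over the 3 lists together, 17 of 45 genes rose, against 21.9% of all genes, and 11 fell, a share near the 23.1% of all genes. By over 1.5-fold, 8 of the 45 were higher and 3 lower, against 8.31% and 8.39% of all genes, and the median log2 fold change was 0.047.

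Per1 is also known to respond to glucocorticoids and to cAMP signals outside the clock loop, so genes of these responses were read beside it. Of 11 glucocorticoid response genes, 8 rose and 0 fell in edgeR's test, against 21.9% and 23.1% of all genes, with Zbtb16 at 1.42, Klf9 at 1.33 and Klf15 at 1.22 on the log2 scale and Fkbp5 at 0.20. Of 11 immediate early genes tested, 6 rose, against 21.9% of all genes, and 3 fell, near the share of 23.1% of all genes, among them Fosb at 1.48, Nr4a1 at 0.71 and Atf3 at 0.63 against Junb at -1.36 and Egr3 at -1.02. Whether the levels of Per1 depend on either response was not tested.

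Genes with profiles most like those of Dbp and Arntl were ranked by the Euclidean distance between centred log2 CPM over the 6 libraries, among 12361 genes with a mean of at least 5 CPM. Nearest to Dbp were Flnc at 0.048, Rusc2 at 0.061, Il15ra at 0.063, Cyb5r3 at 0.066 and Mknk2 at 0.077, where the median gene was at 0.64. Nearest to Arntl were Gm5835 at 0.039, Lancl1 at 0.062, Dnajb2 at 0.070, Timm13 at 0.074 and Insig2 at 0.077, where the median gene was at 0.34. Among the clock genes themselves the closest profiles were those of Arntl and Cry2, 0.13 apart, and of Per1 and Dbp, 0.14 apart, and the farthest were those of Cry1 and Nr1d1, 1.62 apart. These distances rest on 6 libraries, hold the difference between WT and KO, and describe likeness only.

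The 6 genes that rose kept their call and direction in all 14 alternative settings. The log2 fold change of Nr1d1 ranged from 1.07 to 1.21 and that of Nr1d2 from 0.96 to 1.17. That of Per1 ranged from 0.41 to 0.57, of Per2 from 0.33 to 0.47, of Per3 from 0.23 to 0.36 and of Dbp from 0.39 to 0.53. Arntl, Clock, Cry1 and Cry2 kept their direction too, with Clock as low as 0.0094 and Cry2 as close to 0 as -0.019.

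**Figure D5:**
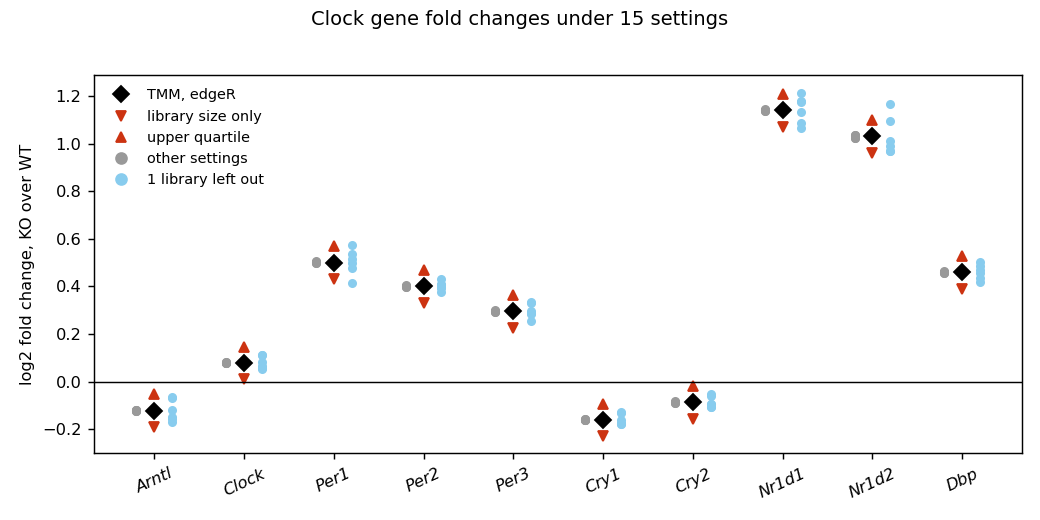
Log2 fold change of KO over WT for each clock gene (vertical axis) under 15 settings. Black diamonds are the reported values, and red triangles are library size only and upper-quartile factors. Grey points are RLE factors, other tools, other filters and the replicate block, and blue points are fits without 1 library. Values of Nr1d1 lie between 1.07 and 1.21, and those of Arntl, Clock, Cry1 and Cry2 lie near 0.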

How the data were processed

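RNA-seq counts of E18.5 leg muscle were used for 3 WT and 3 SYISL KO samples. Per the submitters' processing notes, the authors used Trim Galore 0.6.6, HISAT2 2.2.1 and featureCounts 2.0.1 with mm10. They deposited unnormalized whole-number counts for each gene; annotation and strand setting are not given in the sources used here. Of the 56262 genes, 18920 had no count in any sample.

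Counts were analysed in R 4.3.3 with edgeR 4.0.16 (filterByExpr, TMM, quasi-likelihood F-test on genotype), with Benjamini-Hochberg adjustment over 22071 genes, at an adjusted p of 0.05 and, where stated, a fold change over 1.5. The biological coefficient of variation was 7.68%. Ratios used counts + 0.5 and exact permutation tests. No source says that samples came from separate litters, so p-values measure the spread between these samples only. Samples of 1 genotype differed beyond counting noise (chi-square averaging 4.85 to 32.9 a gene). Each sample held a total of 82054811 to 102233181 counts.

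The clock genes and gene lists were chosen with earlier results of these data known. All 10 clock genes are named, with list genes over 1.5-fold, up to 6 a list, and the 5 nearest profiles to Dbp and Arntl. Other list genes were named after their values were seen. The values of 2 list genes, counted with their lists, are not reported here. Alternatives were other scaling factors, DESeq2 1.42.0, limma-voom (limma 3.58.1), other filters, a fold change over 2, a replicate block and leaving out each sample.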

Additional observations from a re-analysis of the deposited data

How the results depend on the processing

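The number of clock genes lower at an adjusted p under 0.05 was the least stable count. It was 1 as reported, 0 with upper-quartile factors, 3 with library size only, 0 with a replicate block and 0 to 1 with each sample left out. Upper-quartile factors moved the median log2 fold change of all genes to 0.064 and library size only moved it to -0.073, and the log2 fold changes of the clock genes moved with them. Of the 45 other clock pathway genes, 8 were higher and 3 lower by over 1.5-fold, against 8.31% and 8.39% of all genes. By over 2-fold, 3 of these pathway genes were higher and 1 lower, and the share of all genes at that fold was not counted. Their count lower at an adjusted p under 0.05 was 11 as reported, 6 with upper-quartile factors and 15 with library size only. It was 7 to 11 with each sample left out, with 7 without the third KO sample. The same count over all 22071 genes was 5098 as reported, 3719 with upper-quartile factors and 6475 with library size only. Without the third KO sample it was 3733 of 22510 genes. The log2 ratio of Nr1d1 to Nr1d2 differed by 0.12, and by -0.021 to 0.20 with each sample left out, with the reversal at -0.021 without the first WT sample; the cause was not tested. Whether same-numbered samples were paired is not given in the sources used here. Their deviations from the group means had correlations of -0.20, -0.13 and 0.047. These values cannot decide it, because the deviations of 3 samples from their own mean sum to 0. In the paired fit with a replicate block, Cry1 did not pass at an unmoved log2 fold change of -0.16 (adjusted p = 0.0747), and genes called over 1.5-fold went from 1835 higher and 1852 lower to 1744 and 1777. With 3 samples a genotype, an exact test of a ratio cannot go below p = 0.1.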
